A study of Mus musculus with 8 samples.

Results

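Schwann cells and melanocytes both descend from the neural crest, and a limb bud receives their precursors as it grows. The genes described here are 8 markers of these lineages, namely Sox10, Foxd3, Erbb3, Kit, Pmel, Dct, Tyrp1 and Mlana, taken by gene name from the deposited table of 21692 genes. Of the 8, 7 were found and 5 had enough reads to be tested; Dct and Tyrp1 are given as read counts, and Mlana was not analysed here. Forelimb buds of CD1 mouse embryos, an outbred albino stock, were taken at gestation day 13 and cultured for 24 h. The OPE group (4 libraries) received a house dust-based mixture of organophosphate esters, which are flame retardants and plasticisers, at a dilution of 1 in 300000. The vehicle group (4 libraries) received dimethyl sulfoxide (DMSO). The labels do not say whether replicates were separate litters, cultures or pools of embryos, so p-values measure the spread between these libraries, which may be partly technical.

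SOX10 is the transcription factor that neural crest cells keep when they become glia or pigment cells, and FOXD3 is a transcription factor of the early neural crest that represses the pigment cell fate. Schwann cell precursors travel along growing nerves and depend on neuregulin 1 from axons, which they sense with ERBB3 together with ERBB2. Melanoblasts depend on the receptor tyrosine kinase KIT and its ligand KITL. SOX10 and PAX3 switch on the factor MITF, and MITF in turn switches on the pigment genes: Dct and Tyrp1 encode melanin-making enzymes, and Pmel encodes the fibril protein of the melanosome. In the limb some of these genes are also used elsewhere: Kit by mast cells and some blood progenitors, and Erbb3 by epithelia.

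MITF binds a DNA word with the core CATGTG, extended as TCATGTG in the M-box of pigment genes, and SOX proteins bind words such as ACAAAG and ACAATG. Promoter windows in RefSeq (build GRCm38.p6), from 250 bases before the transcript start that RefSeq uses to 50 after it, were on hand for 4 of the 7 genes, namely Tyrp1, Dct, Foxd3 and Kit. The windows of Dct and Tyrp1 are shown because these 2 enzyme genes are set against each other below. Both are read 5′ to 3′ along the gene, and capitals mark every match to the 4 words on either strand. The start is at 118052246 for Dct, the end of its span in the deposited table, and at 80834213 for Tyrp1, inside its span there, which opens at 80834123. The Dct window is chr14:118052197-118052496 on the minus strand, and the Tyrp1 window is chr4:80833963-80834262 on the plus strand.
Dct: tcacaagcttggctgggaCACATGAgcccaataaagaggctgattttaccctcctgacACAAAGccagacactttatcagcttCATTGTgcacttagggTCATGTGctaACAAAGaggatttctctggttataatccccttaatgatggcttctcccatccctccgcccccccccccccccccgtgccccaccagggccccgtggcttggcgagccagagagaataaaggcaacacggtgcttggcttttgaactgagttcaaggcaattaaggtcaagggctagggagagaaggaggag
Tyrp1: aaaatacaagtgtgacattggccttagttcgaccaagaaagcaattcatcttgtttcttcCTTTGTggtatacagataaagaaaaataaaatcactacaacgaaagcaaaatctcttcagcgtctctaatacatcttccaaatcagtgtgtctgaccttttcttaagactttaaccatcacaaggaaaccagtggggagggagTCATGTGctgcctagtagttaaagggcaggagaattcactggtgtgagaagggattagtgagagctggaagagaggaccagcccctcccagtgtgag
TCATGTG, which contains CATGTG, starts at position -47 from that start in Tyrp1 and at -151 in Dct, and Dct holds it a second time on the other strand from -232. ACAAAG occurs in Dct from -192 and from -141, and on the other strand in Tyrp1 from -190; ACAATG occurs once, on the other strand in Dct from -167. Over all 32851 promoter windows of this length, 3.77% hold TCATGTG, 14.2% hold CATGTG, 18.7% hold ACAAAG and 12.6% hold ACAATG on either strand. The windows of Foxd3 and Kit held none of these letters. These matches describe the sequence and are not evidence of binding.

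The libraries held between 14986793 and 21806141 counted reads with OPE and between 17549560 and 22006738 with vehicle. Levels within a gene are given as CPM, its reads as a share of the TMM-scaled library total. On principal components of log2 CPM, OPE 3 lay far from the other libraries along the first axis and OPE 1 along the second. The forelimb label was checked on FPKM, a level per gene length: Tbx5, the forelimb T-box gene, was at 76.8 ± 6.76 FPKM with OPE and 73.2 ± 3.08 with vehicle, and the hindlimb genes were lower. Of these, Pitx1 was at 1.4 ± 0.275 FPKM with OPE and 1.38 ± 0.292 with vehicle, and Tbx4 at 7.67 ± 1.07 FPKM with OPE and 8.88 ± 0.505 with vehicle (SD, n = 4 each). The fit covered 15517 genes. In it 74 genes, or 0.477%, had an adjusted p under 0.05 by the quasi-likelihood test of edgeR, 68 lower (0.438%) and 6 higher (0.0387%) with OPE. That count ranged from 7 to 308 when single libraries were left out.

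None of the 5 tested Schwann cell and melanoblast genes passed the threshold over all genes, where 0.477% of all genes did. At an unadjusted edgeR p of 0.05, 2 of the 5 were lower and none was higher with OPE, against 7.31% of all genes lower and 5.85% higher. No other tool or setting tried called any of them either. The median log2 fold change of the 5 genes was -0.06, and that of all genes tested was 0.01. Pmel and Sox10 had the lowest values relative to vehicle, while Erbb3, Kit and Foxd3 lay close to the vehicle group. RNA from whole buds cannot tell fewer cells of a lineage from less RNA per cell.

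**Figure D1:**
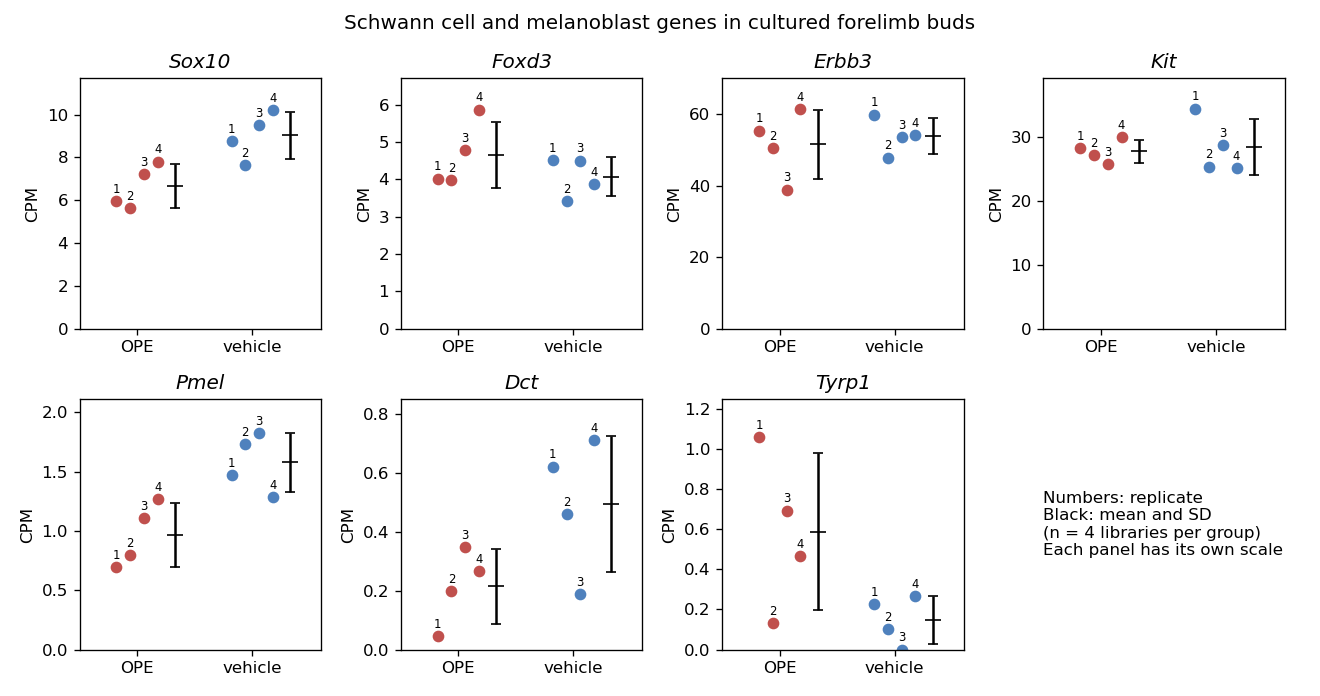
CPM (TMM-scaled) of 7 Schwann cell and melanoblast genes in each library, OPE left and vehicle right; numbers name the replicate and black bars give mean and SD (n = 4 per group). Pmel is the gene whose groups do not overlap, with 1.27 CPM as its highest OPE value and 1.29 CPM as its lowest vehicle value.

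The lineage transcription factors came first. Sox10 (chromosome 15, 79154913 to 79164490, mm10) had 5.95, 5.62, 7.21 and 7.79 CPM in OPE 1 to 4, against 8.75, 7.65, 9.51 and 10.2 CPM in vehicle 1 to 4. The groups overlapped at 1 point, since OPE 4 lay just above vehicle 2. The means were 6.65 ± 1.03 CPM with OPE and 9.03 ± 1.1 CPM with vehicle (SD, n = 4 each). The log2 fold change was -0.45 ± 0.16 (SE; 95% interval -0.79 to -0.10), with an unadjusted edgeR p of 0.0162 and an adjusted p of 0.246, so the difference did not hold up over all genes. It kept its sign in all 19 alternatives, between -0.54 and -0.38 on the log2 scale, with adjusted p between 0.143 and 0.51.

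Foxd3 (chromosome 4, 99656299 to 99658622), a gene of a single exon, went the other way by a small amount. It had 4.01, 3.97, 4.79 and 5.86 CPM in OPE 1 to 4, against 4.51, 3.42, 4.5 and 3.86 CPM in vehicle 1 to 4. The groups overlapped, and OPE 4 was the highest of the 8 libraries. Its log2 fold change was 0.19 ± 0.19 (SE; 95% interval -0.22 to 0.60; edgeR adjusted p = 0.745). Without OPE 4 the log2 fold change was 0.06. The intervals of Sox10 and Foxd3 overlap, and the difference between the 2 genes was not tested.

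The 2 receptors were the most highly expressed of the 7 genes. Erbb3 (chromosome 10, 128567523 to 128589652), the neuregulin receptor of Schwann cell precursors, had 55.4, 50.5, 38.8 and 61.4 CPM in OPE 1 to 4, against 59.9, 47.8, 53.7 and 54.2 CPM in vehicle 1 to 4. OPE 3 was the lowest and OPE 4 the highest of all 8 libraries, so the OPE values spanned those of vehicle. The log2 fold change was -0.06 ± 0.13 (SE; 95% interval -0.36 to 0.23; edgeR adjusted p = 0.901), and it was 0.05 without OPE 3. The coefficient of variation was 18.6% with OPE and 9.14% with vehicle, where read counting alone would give 3.41% and 3.03%. The SE of the Erbb3 fold change was 0.135 in the main fit, 0.095 without OPE 3 and 0.08 with a trend over gene length removed. The part of that trend in the spread of Erbb3 was not tested.

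Kit (chromosome 5, 75574916 to 75656722), the receptor of melanoblasts, mast cells and blood progenitors, had 28.2, 27.1, 25.7 and 30 CPM in OPE 1 to 4, against 34.4, 25.3, 28.7 and 25.1 CPM in vehicle 1 to 4. All 4 OPE libraries lay inside the vehicle range, and vehicle 1 was the highest. The log2 fold change was -0.03 ± 0.12 (SE; 95% interval -0.30 to 0.23; edgeR adjusted p = 0.949), and it was 0.07 without vehicle 1. The interval leaves room for a change of up to about 0.3 in size on the log2 scale. The summed level of mast cell and blood progenitor genes was 47.9% of the vehicle mean in OPE 1 and 95.6% to 105% in the other OPE libraries, against 92.9% to 108% in the vehicle libraries, and its part in the Kit values was not tested. Cd34, which endothelium also expresses, was the largest gene of that sum, at 31.8 CPM on average with OPE and 33.4 CPM with vehicle. Cpa3, a mast cell protease gene, was at 0.692 CPM in OPE 1 and between 2.91 and 3.68 CPM in the other OPE libraries, against 2.94 to 5.76 CPM in the vehicle libraries (log2 fold change -0.83 ± 0.41, edgeR adjusted p = 0.417).

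The pigment genes were low in every library. Pmel (chromosome 10, 128706258 to 128720238) had 15, 12, 16 and 19 reads in OPE 1 to 4, against 26, 34, 39 and 29 reads in vehicle 1 to 4. In CPM these were 0.692, 0.794, 1.11 and 1.27 with OPE and 1.47, 1.73, 1.83 and 1.29 with vehicle. All 4 OPE values lay below all 4 vehicle values, as in 5.44% of the genes tested (9.49% in either direction), but OPE 4 and vehicle 4 were nearly equal. The log2 fold change was -0.72 ± 0.28 (SE; 95% interval -1.35 to -0.10), with an unadjusted edgeR p of 0.0273 and an adjusted p of 0.303, so the difference did not hold up over all genes. The adjusted p lay between 0.189 and 0.645 over the alternatives. Read counting alone would give coefficients of variation of 25.4% with OPE and 17.7% with vehicle, and the observed ones were 27.7% and 15.6%. Pmel shares 105 exon bases with Dgka on the other strand (GENCODE M21), and the strand setting of the counting is not known here. Dgka held 3900 reads in the 8 libraries, against 190 for Pmel, and its log2 fold change was -0.02 ± 0.12 (edgeR adjusted p = 0.96).

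Dct and Tyrp1, which encode related enzymes of melanin synthesis and whose promoters are printed above, had too few reads to be tested. Dct (chromosome 14, 118012792 to 118052246) had 1, 3, 5 and 4 reads in OPE 1 to 4, against 11, 9, 4 and 16 reads in vehicle 1 to 4. The groups overlapped through vehicle 3, whose 0.187 CPM lay below 3 of the OPE values. The summed 13 reads with OPE and 40 with vehicle gave a ratio of depth-scaled reads of 0.399 (OPE over vehicle; exact 95% binomial interval 0.196 to 0.761). That interval covers counting error only and not the spread between libraries. In the fit without a filter on low counts the log2 fold change of Dct was -1.25 ± 0.62 (SE), with an edgeR adjusted p of 0.495 over 21692 genes.

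Tyrp1 (chromosome 4, 80834123 to 80851719) went in the opposite direction. It had 23, 2, 10 and 7 reads in OPE 1 to 4, against 4, 2, 0 and 6 reads in vehicle 1 to 4. OPE 1, 3 and 4 lay above all vehicle libraries in CPM and OPE 2 lay inside their range; vehicle 3 had 0 reads, which allows up to 0.14 CPM. The summed 42 reads with OPE and 12 with vehicle gave a depth-scaled ratio of 4.29 (exact 95% binomial interval 2.22 to 8.96, counting error only). OPE 1 supplied 54.8% of the OPE reads, and the ratio was 2.89 without OPE 1 and 2.02 without both OPE 1 and OPE 3. OPE 1 was also the library with the most detected genes, 20636, against 18777 to 19965 in the other OPE libraries and 19487 to 19805 in the vehicle libraries. The part of that difference in the Tyrp1 result was not tested. In the fit without a filter the log2 fold change of Tyrp1 was 1.98 ± 0.73 (SE), with an edgeR adjusted p of 0.304.

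In the authors' deposited table none of the 7 genes passed either, but the share of all genes that passed there is not given here. The authors' deposited table gives an adjusted p of 0.171 for Sox10, 0.26 for Tyrp1, 0.34 for Pmel and 0.51 for Dct. The log2 fold changes in the authors' deposited table were -0.36 for Sox10, -0.38 for Pmel, -0.25 for Dct and 0.31 for Tyrp1, so for the low genes they were far smaller in size than the ratios of the deposited reads.

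Levels of different genes were compared in the deposited FPKM, averaged over all 8 libraries. Erbb3 was at 8.78 FPKM, Kit at 5.36, Sox10 at 2.89, Foxd3 at 1.87, Pmel at 0.599, Dct at 0.157 and Tyrp1 at 0.133. Each gene was above the next in all 8 libraries as far down as Pmel and Dct, whereas Dct was above Tyrp1 in 5 of 8. The ranges over libraries overlapped between Erbb3 and Kit and between Sox10 and Foxd3, so these neighbours are ordered within a library but not across libraries. Erbb3 stood above 66% of the genes in the table, Kit above 57.8%, Sox10 above 49.7% and Foxd3 above 45.3%. Pmel stood above 34.2%, Dct above 21.1% and Tyrp1 above 19.6%. The pigment genes were thus the lowest of the 7 in these buds, with Pmel not far below Foxd3 in rank. Levels of Erbb3 and Kit can include RNA of other cells that use them.

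**Figure D2:**
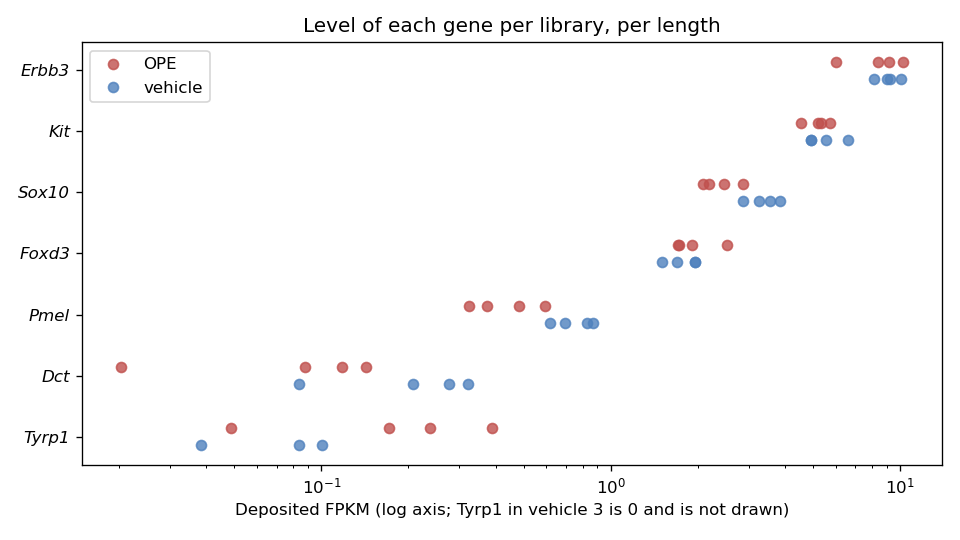
Deposited FPKM (log axis) of the 7 genes in each library, OPE above vehicle within each row, ordered by mean level. Erbb3, at 8.78 FPKM on average, was the highest gene, and Dct and Tyrp1, at 0.157 and 0.133 FPKM, shared the low end. The OPE mean was below vehicle for Dct and above it for Tyrp1. The groups overlap in both genes, and both had too few reads for the main test.

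The 5 tested genes did not share 1 profile over the 8 libraries. Likeness was measured as the root mean square distance between log2 CPM profiles after centring each gene on its mean over 8 libraries. Sox10 was 0.263 from Pmel, 0.30 from Erbb3 and from Kit and 0.334 from Foxd3, while its median distance from all genes tested was 0.355. Erbb3 and Kit were the closest pair, at 0.146, where the median distance from all genes was 0.302 for Erbb3 and 0.262 for Kit. Many other genes lay nearer: Kit ranked 1611 by nearness to Erbb3, and Erbb3 ranked 1685 by nearness to Kit. Pmel ranked 1888 by nearness to Sox10, and Sox10 ranked 262 by nearness to Pmel. The distance from a flat profile was 0.28 for Sox10, 0.195 for Erbb3 and 0.142 for Kit. Sox10 was thus nearer to Pmel than to a flat profile. Erbb3 was nearer to Kit than to a flat profile, but Kit was no nearer to Erbb3 than to one. Foxd3 was 0.19 from Kit and 0.215 from a flat profile. The nearest genes to Sox10 were Clec14a, an endothelial lectin gene (0.0718), Aldh1a3, a retinoic acid synthesis gene (0.0926), and Angpt1, the gene of the vascular ligand angiopoietin 1 (0.0968). Those of Erbb3 were Slc39a10 (0.0338), Gnaq (0.0367) and Synrg (0.0398), and those of Kit were Ckap5 (0.0363), Fem1c (0.0424) and Eftud1 (0.0502).

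Other Schwann cell lineage genes were read from the same fit. Of 25 in the list, 21 were tested, and none passed in either direction; 4 were lower and none was higher at an unadjusted p of 0.05, against 7.31% and 5.85% of all genes, and the median log2 fold change was -0.05 against 0.01 for all genes. The gene closest to the threshold was Ngfr, the low-affinity neurotrophin receptor of Schwann cell precursors, also made by limb mesenchyme. Ngfr had 33.5, 43.7, 40 and 52.2 CPM in OPE 1 to 4, against 62, 66.6, 65.1 and 80.7 CPM in vehicle 1 to 4. Its OPE values all lay below vehicle, as in 5.44% of the genes tested. Its log2 fold change was -0.70 ± 0.14 (SE; edgeR adjusted p = 0.0539), which misses the threshold. Ngfr stayed below 0 in all 19 alternatives, -0.82 to -0.52 on the log2 scale, and passed in 9 of them, with adjusted p from 0.000943 (DESeq2) to 0.155 (without vehicle 4).

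Mbp, the gene of myelin basic protein, had 2.86, 3.51, 3.4 and 3.26 CPM in OPE 1 to 4, against 6.04, 5.15, 6.7 and 4.48 CPM in vehicle 1 to 4. These groups did not overlap either (log2 fold change -0.78 ± 0.18, edgeR adjusted p = 0.0877). DESeq2 was the only 1 of 19 alternatives in which Mbp passed (DESeq2 adjusted p = 0.0119). Ngfr and Mbp were the 2 genes of the 21 whose OPE values lay wholly below vehicle, as 5.44% of all genes did. Tfap2b, a neural crest transcription factor gene also active in limb mesenchyme, gave -0.80 ± 0.23 (edgeR adjusted p = 0.158). Sox2 and Fabp7, genes of immature glia, had too few reads to be tested, with 17 and 23 reads with OPE and 33 and 28 with vehicle. Of the 21 tested genes of the list, 13 had a log2 fold change below 0 and 8 above it, where 47.2% of all genes tested lay below 0. These signs were not tested.

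The list of other melanoblast and melanocyte genes was read in the same way. Of 22 genes 20 had a value and 14 were tested; none passed, and at an unadjusted p of 0.05, 2 of the 14 were lower and 1 was higher, against 7.31% and 5.85% of all genes, with a median log2 fold change of -0.10. Mitf, which encodes the master factor of the pigment lineage, had 10.9, 7.81, 6.1 and 9.46 CPM in OPE 1 to 4, against 9.76, 9.08, 9.13 and 8.52 CPM in vehicle 1 to 4. The OPE values spread to both sides of vehicle (log2 fold change -0.08 ± 0.18, edgeR adjusted p = 0.901). Ednrb, the endothelin receptor of the lineage, and Pax3, a transcription factor gene that muscle precursors also use, gave -0.12 ± 0.17 and -0.73 ± 0.39 (edgeR adjusted p = 0.825 and 0.464).

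The genes with the smallest p in that list were Rab38, Slc24a5 and Hps4. Rab38, a small GTPase that delivers cargo to melanosomes, had 1.34, 2.38, 2.64 and 1.73 CPM in OPE 1 to 4, against 3.44, 3.82, 3.37 and 3.42 CPM in vehicle 1 to 4 (log2 fold change -0.81 ± 0.23, edgeR adjusted p = 0.161). Slc24a5, a cation exchanger of the pigment cell, had 2.26, 2.65, 2.43 and 2.13 CPM in OPE 1 to 4, against 3.22, 3.47, 3.19 and 3.02 CPM in vehicle 1 to 4 (log2 fold change -0.44 ± 0.18, edgeR adjusted p = 0.315). These were the 2 genes of the 14 whose OPE values lay wholly below vehicle, as 5.44% of all genes did, and neither passed. Gpnmb, a melanosome gene that macrophages also express, gave 0.39 ± 0.27 (edgeR adjusted p = 0.589), and Hps4, a gene of organelle traffic in many cells, was higher on average, at 0.29 ± 0.12 (edgeR adjusted p = 0.339). Tyr was not analysed here.

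**Figure D3:**
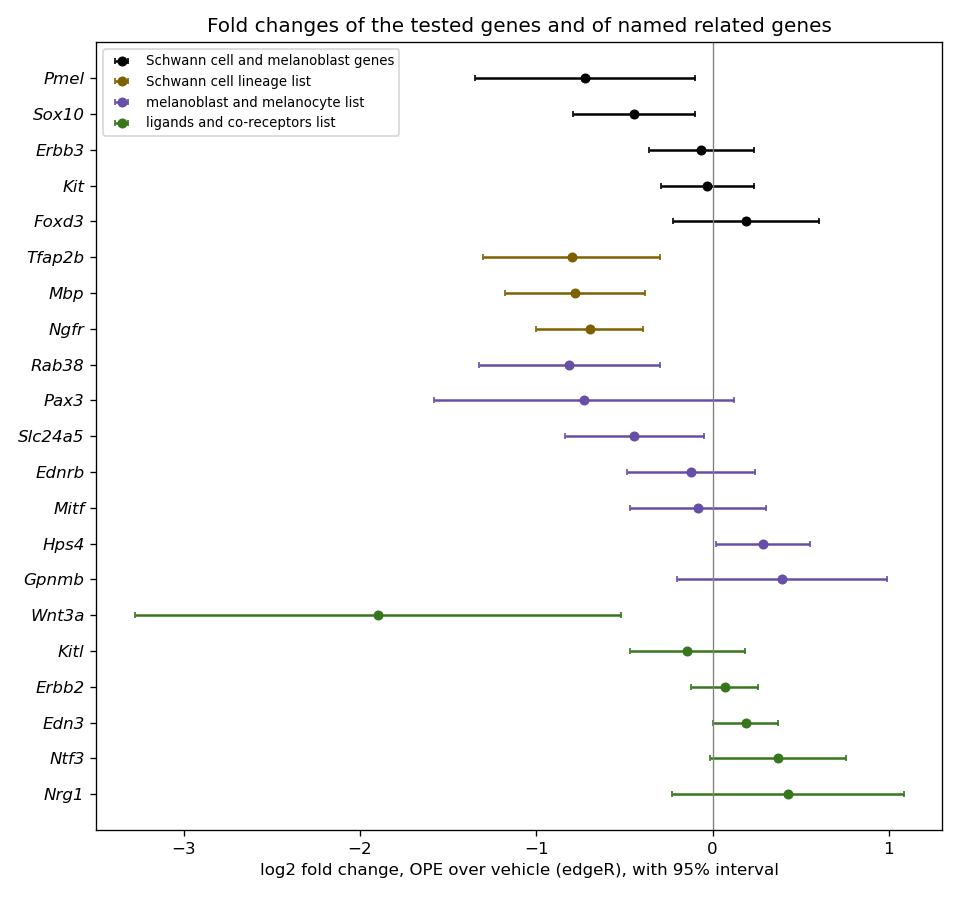
Log2 fold change (OPE over vehicle, edgeR) with its 95% interval for the 5 tested Schwann cell and melanoblast genes and for named genes of the related lists. None of these genes passed an adjusted p of 0.05 in this fit; Sox10 is at -0.45 and Pmel at -0.72, and Ngfr at -0.70 has the smallest adjusted p, 0.0539.

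Reads were found for Kitl, Edn3 and Nrg1, genes of ligands that these receptors read. Of 18 genes in the list of ligands and co-receptors, 16 were tested and none passed; 1 was lower and 1 was higher at an unadjusted p of 0.05, against 7.31% and 5.85% of all genes. Edn3, the endothelin ligand that melanoblasts need, had 35.2, 37.1, 36.4 and 37 CPM in OPE 1 to 4, against 32.5, 32.3, 30.2 and 32.7 CPM in vehicle 1 to 4. All 4 OPE values were above vehicle, as in 4.05% of the genes tested, by a small amount (log2 fold change 0.19 ± 0.08, edgeR adjusted p = 0.367). Kitl, the ligand of KIT, had 23.2, 26.9, 33.1 and 37.5 CPM in OPE 1 to 4, against 38.3, 30.5, 32.6 and 31.9 CPM in vehicle 1 to 4 (log2 fold change -0.14 ± 0.15, edgeR adjusted p = 0.756). Nrg1, the gene of the neuregulin 1 that ERBB3 senses, gave 0.43 ± 0.30 at low expression (edgeR adjusted p = 0.598). Its means were 2.51 ± 0.627 CPM with OPE and 1.89 ± 0.631 CPM with vehicle (SD, n = 4 each). Which cells made this RNA was not tested, so it does not measure the signal from axons. Erbb2, the partner receptor, gave 0.07 ± 0.09 (edgeR adjusted p = 0.813), with 32.1 ± 3.65 FPKM with OPE and 31.6 ± 0.958 FPKM with vehicle. Wnt3a, the gene of a Wnt ligand of the dorsal neural tube, had 11 reads with OPE and 53 with vehicle (log2 fold change -1.90 ± 0.63, edgeR adjusted p = 0.214), and Ntf3, a neurotrophin gene, gave 0.37 ± 0.18 (edgeR adjusted p = 0.401).

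Genes of the other cells that these libraries can hold were set beside the members as summed CPM per library. The Schwann cell lineage list summed to between 584.9 and 629 CPM with OPE and between 659.9 and 680.1 CPM with vehicle, with no overlap. Ngfr and Tfap2b, at 42.4 and 28.4 CPM on average with OPE and 68.6 and 49.5 CPM with vehicle, made up much of the gap. The melanoblast and melanocyte list overlapped, at 315.4 to 373.4 CPM with OPE and 314.1 to 345.4 CPM with vehicle. Its largest genes were Cdh3, Ap3b1 and Gpnmb, at 97.3, 80.8 and 63.7 CPM on average with OPE and 94.6, 80.2 and 48.4 CPM with vehicle. Low genes such as Rab38 and Slc24a5 hardly weigh in that sum, so its overlap does not describe them. The neuron and axon list summed to 73.5 to 88.1 CPM with OPE and 86.4 to 98.3 CPM with vehicle. Ntrk2, a neurotrophin receptor gene, was by far the largest gene of that list, at 42.3 CPM on average with OPE and 49.5 CPM with vehicle. Of the tested genes of the neuron and axon list, 9 had a log2 fold change below 0 and 4 above it, against 47.2% of all genes below 0. None of these 13 genes passed, and Tubb3, a neuronal tubulin gene, gave -0.45 ± 0.22 (edgeR adjusted p = 0.417).

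Lists of macrophage, endothelial, epidermal and mesenchymal genes were read in the same way. The macrophage list lay at 29.8 to 73.6 CPM with OPE and 147.5 to 166.5 CPM with vehicle, and 7 of its 11 tested genes fell, against 0.438% of all genes. Endothelial genes lay at 150 to 276.2 CPM with OPE and 305.3 to 358.3 CPM with vehicle, and none of the 11 tested genes passed, while 5 were lower at an unadjusted p of 0.05, against 7.31% of all genes. The epidermal list, whose cells can use Erbb3, lay at 210.3 to 502.7 CPM with OPE and 330.8 to 424.5 CPM with vehicle. It was highest in OPE 2 and lowest in OPE 4, and Erbb3 was highest in OPE 4 and lowest in OPE 3; its part in the Erbb3 values was not tested. Limb bud mesenchyme genes overlapped, at 8072 to 8835 CPM with OPE and 7781 to 9047 CPM with vehicle. The part of the macrophage and endothelial values in those of Sox10 and Pmel was not tested.

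**Figure D4:**
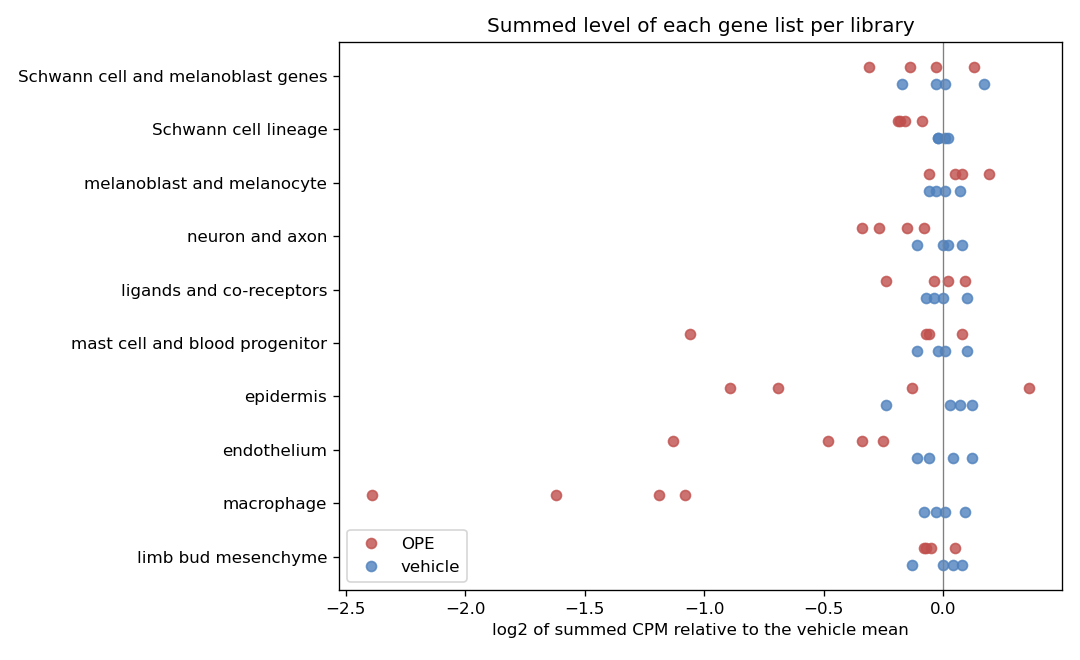
Summed CPM of each gene list per library, as log2 relative to the vehicle mean, OPE above vehicle within each row. The Schwann cell lineage list separates the groups narrowly (87.5% to 94.1% of the vehicle mean with OPE) and the macrophage list widely (19.1% to 47.2%). The Schwann cell and melanoblast genes overlap, and so does the melanoblast and melanocyte list. Erbb3 and Kit, at 53.9 and 28.4 CPM on average with vehicle, make up most of the sum of the Schwann cell and melanoblast genes. Sox10 and Pmel, at 9.03 and 1.58 CPM with vehicle, weigh little in it.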

How the data were processed

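Poly-A RNA of cultured forelimb buds was sequenced, per the labels' protocols. Tools listed in the submitters' processing notes are DESeq2 (its version written as 2), HTSeq 0.6.1, STAR 2.5 and CASAVA 1.8, with build mm10; what each did, and whether counting used strand, is not known here. The authors deposited, per the file headers, raw counts per gene, counts divided by 1 constant per library (a signal, not used for tests), FPKM, and their own log2 fold change and p-value columns. Libraries were grouped by title.

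The deposited counts went into edgeR 4.0.16 under R 4.3.3 (TMM, filterByExpr, robust quasi-likelihood fit, two-sided, Benjamini-Hochberg at 0.05 over 15517 genes), with group as the only term. Standard errors are the log2 fold change divided by the square root of F. CPM uses TMM-scaled totals, and log2 CPM a prior count of 2. Genes below the filter have ratios of summed reads with exact 95% intervals; PCR copies are not separate molecules, so intervals and floors (3 reads) cover counting error only. The steps were tested on simulated data. Within groups every pair of libraries differed beyond read sampling (lowest chi-square over its degrees of freedom 4.8).

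The members and lists were chosen with earlier results of these data known. Besides the 8 members, genes were named by rule: 16 set genes, any list gene past the threshold, up to 3 of smallest p per list, and the 3 nearest profiles of Sox10, Erbb3 and Kit; some single-gene results are not reported here. Alternatives covered scaling, filters, DESeq2 1.42.0, limma-voom (limma 3.58.1), a fit that is not robust, a replicate block, leaving out libraries and removing a gene-length trend.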

Additional observations from a re-analysis of the deposited data

Results flagged for a closer look

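The summed level of mast cell and blood progenitor genes in OPE 1, at 26.2 CPM, stood apart from the other OPE libraries, which lay between 52.3 and 57.7 CPM, against 50.9 to 58.9 CPM in the vehicle libraries. Its gap to the nearest OPE library was 0.83 of the range of the group, just past Dixon's limit for 4 samples. This was 1 of 32 groups of 4 libraries checked, and chance alone flags about 1 in 20. OPE 1 was also the lowest library for the endothelial list, at 45.6% of the vehicle mean, and for the macrophage list, at 19.1%. Cd34, the largest gene of the mast cell and blood progenitor sum, is also an endothelial gene.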

How the results depend on the processing

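The call on the Schwann cell and melanoblast genes was the same in all 19 alternatives: none passed. Sox10, Pmel and Foxd3 kept their direction throughout (-0.54 to -0.38, -0.89 to -0.58 and 0.06 to 0.27 on the log2 scale). Erbb3, at -0.06 in all 8 libraries, ranged from -0.161 to 0.05 when single libraries were left out (0.05 without OPE 3), and gave 0.056 without both OPE 1 and OPE 3, and 0.007 with the gene-length trend removed. Kit, at -0.03, ranged from -0.09 to 0.07 in the same way (0.004 without OPE 3, 0.07 without vehicle 1), and gave 0.012 without both OPE 1 and OPE 3, and 0.051 with the gene-length trend removed; the cause was not tested. Read ratios lay between 0.314 and 0.547 for Dct and between 2.02 and 6.2 for Tyrp1.

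Among the other Schwann cell lineage genes, DESeq2 called 3 (Ngfr, Mbp and Tfap2b, all lower), and 8 further alternatives called Ngfr alone. Over all genes DESeq2 called 492 of 21689 (329 lower), against 74 of 15517 in the main fit (68 lower). The 8 alternatives that called Ngfr alone called between 62 genes (replicate block) and 322 genes (gene-length trend removed). The same alternatives called none of the melanoblast and melanocyte, ligand or neuron genes. The follow-up of Ngfr and Mbp was chosen after seeing the data.

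The count of 74 genes over the whole table was 131 with library totals only, 136 without a filter, 492 with DESeq2 and 322 with the gene-length trend removed (171 lower and 151 higher), and 7 to 308 when single libraries were left out: 12, 308 and 178 without OPE 2, 3 or 4 and 8, 7, 19 and 7 without vehicle 1 to 4. Titles share replicate numbers, but same-numbered libraries deviated together with correlations of 0.309, 0.082, 0.013 and 0.092, and not every library correlated best with its own number, so they were not treated as pairs. The replicate block gave 62 genes and none of the Schwann cell and melanoblast genes. Depth limited Dct and Tyrp1, where 3 reads in a library are worth 0.133 to 0.208 CPM.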

Other observations

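Other low genes of these lineages, outside the rule for named genes and chosen after their values were seen, held few reads. Mc1r, the melanocortin receptor gene, had 1 read in OPE libraries and 11 in vehicle libraries (ratio of depth-scaled reads 0.112, exact 95% binomial interval 0.00259 to 0.767), with 6 of the 11 in vehicle 1. Mag, the gene of myelin-associated glycoprotein, had 15 reads in OPE libraries and 37 in vehicle libraries (ratio 0.497, interval 0.254 to 0.928), with 15 in vehicle 3 and 13 in vehicle 4. Slc45a2, a melanosome transporter gene, had 12 reads in OPE and 23 in vehicle libraries (ratio 0.64, interval 0.29 to 1.34), and Trpm1, a channel gene of pigment cells, had 10 in OPE and 8 in vehicle libraries (ratio 1.53, interval 0.545 to 4.47), with all 10 in OPE 1. The remaining low genes of the Schwann cell lineage and of the melanoblast and melanocyte list had intervals that included 1. Their ratios were 1.23 for Gpr143, 1.02 for Bloc1s1, 1.01 for Fabp7, 0.729 for Dhh, 0.632 for Sox2 and 0.545 for Kcnj13. All these intervals cover counting error only. The genes were below the filter of the main test, and the edgeR fit without that filter included them and called none.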
